A study of Mus musculus with 6 samples.

Results

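Lysosomes are the acidic compartments in which a macrophage digests what it has taken up. Soluble hydrolases do the cutting, glycosylated membrane proteins line and serve the compartment, and the vacuolar proton pump (V-ATPase) keeps its lumen acid. The pump has a membrane-bound V0 sector that carries protons and a cytoplasmic V1 sector that splits ATP. The transcription factors TFEB and TFE3 are known to switch on many lysosomal genes together, by binding a short E-box sequence in their promoters. The genes described here are 41 listed lysosomal genes and every gene whose symbol starts with Atp6v0 or Atp6v1, which gave 63 genes of the 16775 in the tables. Of these, 57 reached a CPM (a count relative to the library total) of 1 in 1 library or more and were compared, among 11898 genes that passed the same filter. They were 29 hydrolases, 8 membrane proteins, 16 pump genes, 2 cofactors (Psap and Grn) and 2 transcription factors (Tfeb and Tfe3). The 6 genes that did not pass, Atp6v1b1, Atp6v1c2, Atp6v1e2, Atp6v1fnb, Atp6v0a4 and Atp6v0e2, all came in by their symbols, and apart from Atp6v1fnb they encode forms of a subunit that a compared gene also encodes.

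The cells were macrophages grown for 5 days from C57BL/6 bone marrow in medium with 10% FBS and M-CSF at 10 ng/ml, which drives macrophage differentiation. Each culture then received, for 24 hours, IL4 with fatostatin, with betulin, with 25-HC, with PF429424 or with 1,10-Phen, or IL4 alone. IL4 is the cytokine of alternative macrophage activation, and every library carries it, so these data do not show what IL4 itself did to a lysosomal gene. The labels give no dose, no vehicle and no target for any compound, and expand neither 25-HC nor 1,10-Phen. Both fatostatin and betulin are known to block the maturation of SREBP proteins, the transcription factors of cholesterol and fatty acid synthesis, and the series title names SREBP2. Each comparison therefore asks how lysosomal transcripts differed when IL4-treated macrophages also received a compound.

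There was 1 library per treatment, so no difference below has a replicate check, no p-value is given, and each value compares 2 libraries rather than 2 treatments. The libraries held between 20181396 and 21169667 estimated counts. The log2 ratio of a compound library to the IL4 library was taken on counts scaled by TMM factors with a prior count of 2, and its 95% interval is exact and covers counting error only. A gene is called higher or lower where that ratio was at least 1 in size, a 2-fold difference, and its interval excluded 0. All 5 ratios of a gene share the IL4 library, so a low or high IL4 value enters each of them. The TMM factor of the 1,10-Phen library, 0.900, was the lowest, and scaling to library totals instead moved the median ratio of all compared genes from about 0 to -0.25 with 1,10-Phen and to -0.11 with PF429424. That scaling also moved the share of calls that were higher with 1,10-Phen from 39.1% to 24.8%, and with PF429424 from 30.6% to 19.9%. The labelled cell type fits the markers: all 8 macrophage markers, among them Csf1r and Adgre1, had a CPM of at least 1 in every library. The summed level of 5 B cell markers was at most 4.98 CPM and that of 6 stromal markers 35.5 to 100.1 CPM over the libraries. Of 6 dendritic cell markers, 1 to 3 reached a CPM of 1 in a library, and at least 99.1% of their summed level was Itgax, which is not limited to these cells. In bulk RNA, fewer cells of a type and less RNA per cell cannot be told apart.

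The lysosomal genes as a whole took a sizeable part of each library. They held 7.68% with fatostatin, 6.90% with betulin, 5.64% with 25-HC, 7.93% with PF429424 and 5.13% with 1,10-Phen, against 6.49% with IL4 alone, with counting intervals of at most 0.0231 percentage points for any share given here. Most of that came from Psap, Ctsb and Ctsd. By FPKM, the deposited unit that allows levels to be compared between genes, they ranked 3, 4 and 5 among all genes in the IL4 library, with 6161, 5524 and 5139 FPKM. Without these 3 genes the share was 3.09% with fatostatin, 2.80% with betulin, 2.33% with 25-HC, 2.88% with PF429424 and 2.14% with 1,10-Phen, against 2.79% with IL4 alone. The share of all members was thus highest with PF429424 and lowest with 1,10-Phen, and without the 3 abundant genes it was highest with fatostatin and again lowest with 1,10-Phen.

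**Figure D1:**
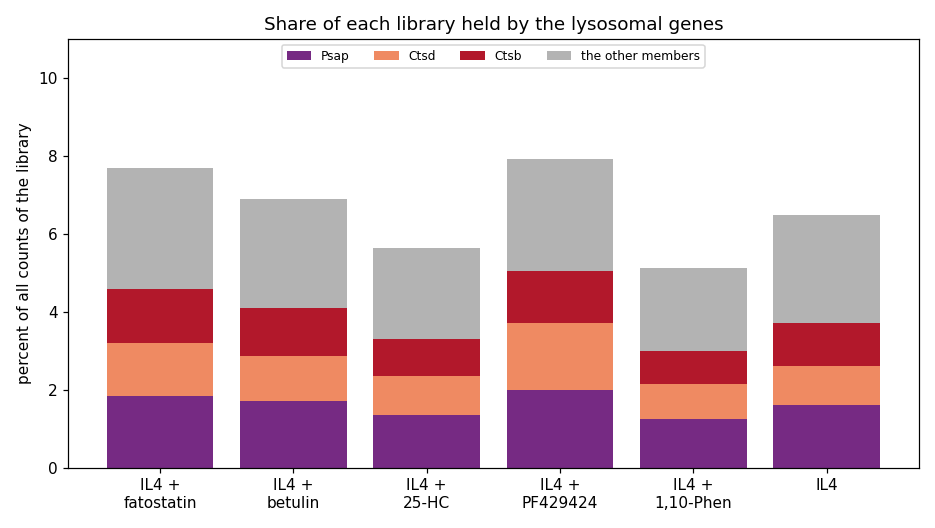
Percent of all estimated counts of each library (y axis) held by the 63 lysosomal genes in the 5 libraries with a compound and in the library with IL4 alone (x axis), split into Psap, Ctsd, Ctsb and the other members. The stacks reach 7.93% with PF429424 and 5.13% with 1,10-Phen, against 6.49% with IL4 alone; there is 1 library per bar and so no error bar.

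Few lysosomal genes moved by 2-fold. None of the 57 was called higher with any of the 5 compounds, where the share of all compared genes called higher was 0.874% with fatostatin, 1.91% with betulin, 3.27% with 25-HC, 2.49% with PF429424 and 7.59% with 1,10-Phen. With fatostatin none was called lower either, where 1.06% of all compared genes were. With betulin 2 members were called lower (3.51% of 57, where 2.29% of all compared genes were), with 25-HC 3 (5.26%, where 5.69% were), with PF429424 2 (3.51%, where 5.63% were) and with 1,10-Phen 6 (10.5%, where 11.8% were). The shares called lower were thus near or below those of all genes, apart from betulin, where 2 genes make the difference. The 7 genes called in at least 1 comparison were Ctsc, Ctsf, Man2b1, Arsb, Gusb, Atp6v0a1 and Atp6v1g2. All compared members but Atp6v1g2, 56 of the 57, had a CPM of at least 1 in all 6 libraries. Over the 6 libraries the highest and lowest level differed by at least 2-fold for 10 of the 57 members (17.5%), where this held for 33.0% of all compared genes. The median range was 0.62 for the members and 0.71 for all compared genes, in log2 units. Counting error was not considered in these ranges, and it is larger for rare genes. A CPM of 5 was reached by 56 of the 57 members and by 10200 of the 11898 compared genes.

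Among the hydrolases, the 11 proteases held the lowest ratio with each compound and the highest with each but 1,10-Phen, where the glycosidase Gla was highest. Ctsc, cathepsin C, is the dipeptidyl peptidase that activates the serine proteases of neutrophil, mast cell and lymphocyte granules, and it lies at chr7:88278024-88315861 (GRCm38). Ctsc had 361 CPM with fatostatin, 248 with betulin, 171 with 25-HC, 179 with PF429424 and 113 with 1,10-Phen, against 544 CPM with IL4 alone. Every compound library was below the IL4 library, with 1,10-Phen lowest. The log2 ratio was -1.13 with betulin (95% counting interval -1.18 to -1.09), -1.67 with 25-HC (95% counting interval -1.72 to -1.62), -1.60 with PF429424 (95% counting interval -1.65 to -1.55) and -2.26 with 1,10-Phen (95% counting interval -2.33 to -2.20). With fatostatin it was -0.59, short of the 2-fold size. Because Ctsc acts on neutrophil proteases and bone marrow cultures can hold neutrophils, the neutrophil markers were read beside it. Their summed level was 381 CPM with fatostatin, 361 with betulin, 371 with 25-HC, 86.6 with PF429424 and 81.6 with 1,10-Phen, against 298 CPM with IL4 alone. It was thus above the IL4 value with betulin and 25-HC, in which Ctsc fell, and below it with PF429424 and 1,10-Phen, in which Ctsc also fell; of the 12 neutrophil markers, 7 to 11 had a CPM of at least 1 in a library and none was at 0. The single markers did not all follow the sum. By counts, S100a8, S100a9, Ltf, Camp, Ngp and Lcn2 did. Each was above IL4 alone with fatostatin, betulin and 25-HC and below it with PF429424 and 1,10-Phen. Ngp had 1645 counts with betulin, 2418 with 25-HC and 112 with 1,10-Phen, against 1332 with IL4 alone. Mpo and the serine protease genes Elane, Prtn3 and Ctsg were also below IL4 alone with PF429424 and 1,10-Phen. With 25-HC, Mpo and Elane were below it as well. Csf3r, the G-CSF receptor, had 2026 counts with fatostatin, 839 with betulin, 635 with 25-HC, 516 with PF429424 and 883 with 1,10-Phen, against 1834 counts with IL4 alone. Cxcr2, a chemokine receptor, had 96 counts with fatostatin, 106 with betulin, 127 with 25-HC, 83 with PF429424 and 174 with 1,10-Phen, against 155 counts with IL4 alone. With betulin and 25-HC both were thus below their IL4 counts, unlike the sum. The part of these cells in the Ctsc values was not tested.

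Ctsf, cathepsin F, is a cysteine protease that can process the MHC class II invariant chain in macrophages, and it lies at chr19:4855165-4860918 (GRCm38). It was a rare transcript here, with 154 counts with fatostatin, 102 with betulin, 65 with 25-HC, 84 with PF429424 and 44 with 1,10-Phen, against 208 counts with IL4 alone. By CPM the order of the 6 libraries was that of Ctsc, with IL4 alone highest and 1,10-Phen lowest. The log2 ratio was -1.004 with betulin (95% counting interval -1.37 to -0.67), -1.68 with 25-HC (95% counting interval -2.14 to -1.30), -1.21 with PF429424 (95% counting interval -1.61 to -0.86) and -1.996 with 1,10-Phen (95% counting interval -2.54 to -1.56), and -0.41 with fatostatin. The betulin value lay at the threshold and its call was lost with a prior count of 10 and on log2(FPKM + 1). All calls of Ctsc and Ctsf, and that of Man2b1 below, were lost when the median of the 6 libraries took the place of the IL4 library, since the IL4 library was the highest of the 6 for these genes. Ctsh, an aminopeptidase of the same family, had a log2 ratio of -0.21 with fatostatin, -0.20 with betulin, -0.37 with 25-HC, -0.43 with PF429424 and -0.99 with 1,10-Phen, and was called with 1,10-Phen only on library totals or FPKM, at -1.24 and -1.22.

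The most abundant proteases did not follow Ctsc. Ctsd, the main aspartic protease of lysosomes, had 13468 CPM with fatostatin, 11510.1 with betulin, 9758 with 25-HC, 17798 with PF429424 and 9947 with 1,10-Phen, against 9423 CPM with IL4 alone. All 5 compound libraries were above IL4 alone, PF429424 by the most, at a log2 ratio of 0.92, but on library totals the 1,10-Phen library was below it. Ctsb, the most abundant cysteine protease here, had 13539.5 CPM with fatostatin, 12005 with betulin, 9238 with 25-HC, 13728 with PF429424 and 9422 with 1,10-Phen, against 10281 CPM with IL4 alone. Its level was above IL4 alone with fatostatin, betulin and PF429424, and below it with 25-HC and 1,10-Phen. Ctsl, cathepsin L, had 3503 CPM with fatostatin, 3486 with betulin, 2627 with 25-HC, 3606 with PF429424 and 3087 with 1,10-Phen, against 2283 CPM with IL4 alone. Its log2 ratio was 0.62 with fatostatin, 0.61 with betulin, 0.20 with 25-HC, 0.66 with PF429424 and 0.44 with 1,10-Phen, above 0 in all 5. Ctsk, a collagen-cutting protease known best from osteoclasts, had 37.9 CPM with fatostatin, 37.4 with betulin, 29.7 with 25-HC, 30.2 with PF429424 and 27.2 with 1,10-Phen, against 23.8 CPM with IL4 alone. Its largest ratios, 0.67 with fatostatin and 0.65 with betulin, were also short of 2-fold. The asparagine-specific protease Lgmn, which cuts other cathepsins into their two-chain forms, had log2 ratios of 0.21 with fatostatin, -0.30 with betulin, -0.96 with 25-HC, -0.20 with PF429424 and -0.45 with 1,10-Phen, and came closest to a call with 25-HC. The other 3 proteases, Ctsa, Ctsz and Tpp1, had log2 ratios between -0.29 and 0.35. The median over the 11 proteases was 0.21 with fatostatin, 0.07 with betulin, -0.15 with 25-HC, 0.31 with PF429424 and -0.12 with 1,10-Phen.

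Of the 11 glycosidases, the enzymes that take sugars off glycoproteins, glycolipids and glycosaminoglycans, 2 were called. Man2b1, the lysosomal alpha-mannosidase at chr8:85082730-85098739 (GRCm38), had 478 CPM with fatostatin, 348 with betulin, 277 with 25-HC, 396 with PF429424 and 333 with 1,10-Phen, against 589 CPM with IL4 alone. IL4 alone was the highest library and 25-HC the lowest. Its log2 ratio was -1.09 with 25-HC (95% counting interval -1.13 to -1.04), and -0.82 with 1,10-Phen, which became a call of -1.06 on library totals or FPKM. Gusb, the beta-glucuronidase at chr5:129989011-130003049 (GRCm38), had 836 CPM with fatostatin, 791 with betulin, 643 with 25-HC, 850.4 with PF429424 and 404 with 1,10-Phen, against 859 CPM with IL4 alone. The 1,10-Phen library stood apart at a log2 ratio of -1.09 (95% counting interval -1.13 to -1.05), while fatostatin and PF429424 were within 0.04 of IL4 alone on that scale. Gla, alpha-galactosidase A, was above IL4 alone with every compound and had 192 CPM with fatostatin, 211 with betulin, 186 with 25-HC, 205 with PF429424 and 240.4 with 1,10-Phen, against 155 CPM with IL4 alone. IL4 alone was its lowest library, and the log2 ratio was highest with 1,10-Phen, at 0.63. Idua, which removes iduronic acid from heparan and dermatan sulfate, had 75.3 CPM with fatostatin, 62.3 with betulin, 57.1 with 25-HC, 78.7 with PF429424 and 85.3 with 1,10-Phen, against 71.2 CPM with IL4 alone. Its values lay on both sides of IL4 alone. Manba, the beta-mannosidase, and Glb1, the beta-galactosidase, were not called but had their lowest ratios with 25-HC, -0.84 and -0.82. The other 5 glycosidases, Fuca1, Gaa, Hexa, Naglu and Neu1, had log2 ratios between -0.56 and 0.40, and the median over all 11 was 0.02 with fatostatin, -0.19 with betulin, -0.42 with 25-HC, -0.01 with PF429424 and -0.26 with 1,10-Phen.

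The 4 sulfatases included 1 gene that was called. Arsb, arylsulfatase B, takes sulfate groups off dermatan and chondroitin sulfate and lies at chr13:93771679-93943016 (GRCm38). It had 50.4 CPM with fatostatin, 37.2 with betulin, 24.8 with 25-HC, 40.6 with PF429424 and 17.7 with 1,10-Phen, against 47.5 CPM with IL4 alone. The log2 ratio was -1.42 with 1,10-Phen (95% counting interval -1.61 to -1.25), and -0.94 with 25-HC was just short of the 2-fold size. Galns, the sulfatase of keratan sulfate, had 114 CPM with fatostatin, 110.3 with betulin, 87.8 with 25-HC, 133 with PF429424 and 83.2 with 1,10-Phen, against 97.1 CPM with IL4 alone. Its ratios lay on both sides of 0, from -0.22 with 1,10-Phen to 0.45 with PF429424. Ids, the iduronate sulfatase, was below IL4 alone in all 5 libraries, with log2 ratios of -0.28 with fatostatin, -0.59 with betulin, -0.70 with 25-HC, -0.48 with PF429424 and -0.28 with 1,10-Phen. Arsa, the sulfatase of sulfatide, had log2 ratios between -0.41 and 0.09. The 3 enzymes that cut lipids or fatty acyl groups, Asah1 (acid ceramidase), Smpd1 (acid sphingomyelinase) and Ppt1 (palmitoyl-protein thioesterase), were not called, and each was below 0 with betulin, 25-HC and PF429424. Ppt1 with 25-HC, at -0.80, was the lowest of these values. The exons of Ppt1 overlap those of Cap1 on the other strand, which had 15843 counts with IL4 alone, against 3523 for Ppt1. The strand setting of the counting is not given, so reads of the shared stretch cannot be told apart.

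Over all 29 hydrolases, the median log2 ratio was 0.08 with fatostatin, -0.19 with betulin, -0.37 with 25-HC, -0.01 with PF429424 and -0.21 with 1,10-Phen, where the median over all compared genes was at most 0.023 in size in each comparison. The number of hydrolases below 0 was 9 with fatostatin, 18 with betulin, 25 with 25-HC, 15 with PF429424 and 18 with 1,10-Phen. On library totals 25 of the 29 were below 0 with 1,10-Phen, as with 25-HC, and the 1,10-Phen median of -0.45 was below the 25-HC median of -0.41, so the order of these 2 compounds turns with the scaling. The 25-HC library was the lowest of the 6 for 17 of the 29 hydrolases, and 1,10-Phen for 8; on library totals these counts were 13 and 14. The summed level of the 8 macrophage markers, of which Lyz2 made up at least 36.5% in each library, was 11337 CPM with fatostatin, 8762 with betulin, 7122 with 25-HC, 10494 with PF429424 and 7670.3 with 1,10-Phen, against 10633 CPM with IL4 alone. On this scale it was lowest with 25-HC, but on library totals it was lowest with 1,10-Phen, at 6904 CPM, and 7388 CPM with 25-HC. Single markers differed. Cd14, a receptor for bacterial lipopolysaccharide, had 881 counts with fatostatin, 1347 with betulin, 2702 with 25-HC, 900 with PF429424 and 1584 with 1,10-Phen, against 947 counts with IL4 alone. Mertk, a receptor for dying cells, had 2224 counts with fatostatin, 1055 with betulin, 893 with 25-HC, 807 with PF429424 and 223 with 1,10-Phen, against 1829 counts with IL4 alone. The first was thus highest with 25-HC, and the other lowest with 1,10-Phen. Their part in the hydrolase values was not tested. The hydrolases below 0 in all 5 comparisons were Ctsc, Ctsf, Ctsh, Fuca1, Gusb, Ids, Man2b1 and Manba, and those above 0 in all 5 were Ctsd, Ctsk, Ctsl and Gla; with library totals only Ctsl and Gla of these 4 stayed above 0 in all 5.

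**Figure D2:**
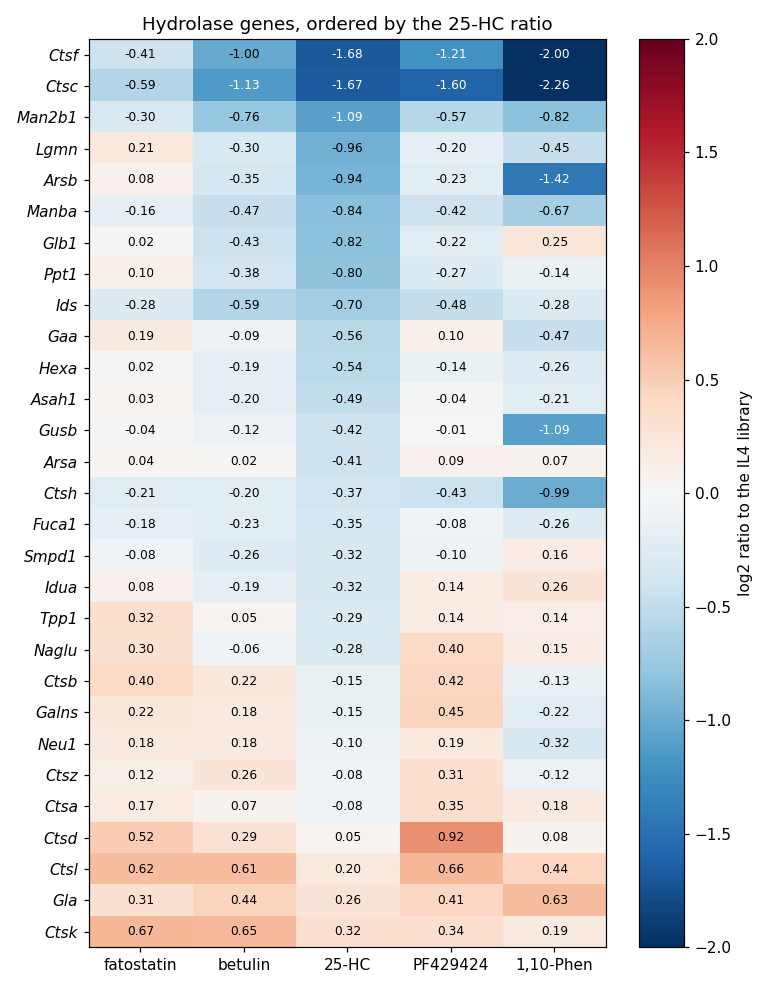
Log2 ratio to the IL4 library (colour and printed value; columns are compounds) for the 29 hydrolase genes (rows), ordered by the ratio with 25-HC. Ctsf and Ctsc stand at the top with -1.68 and -1.67 in the 25-HC column, and Gla and Ctsk stand at the foot with 0.26 and 0.32.

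**Figure D3:**
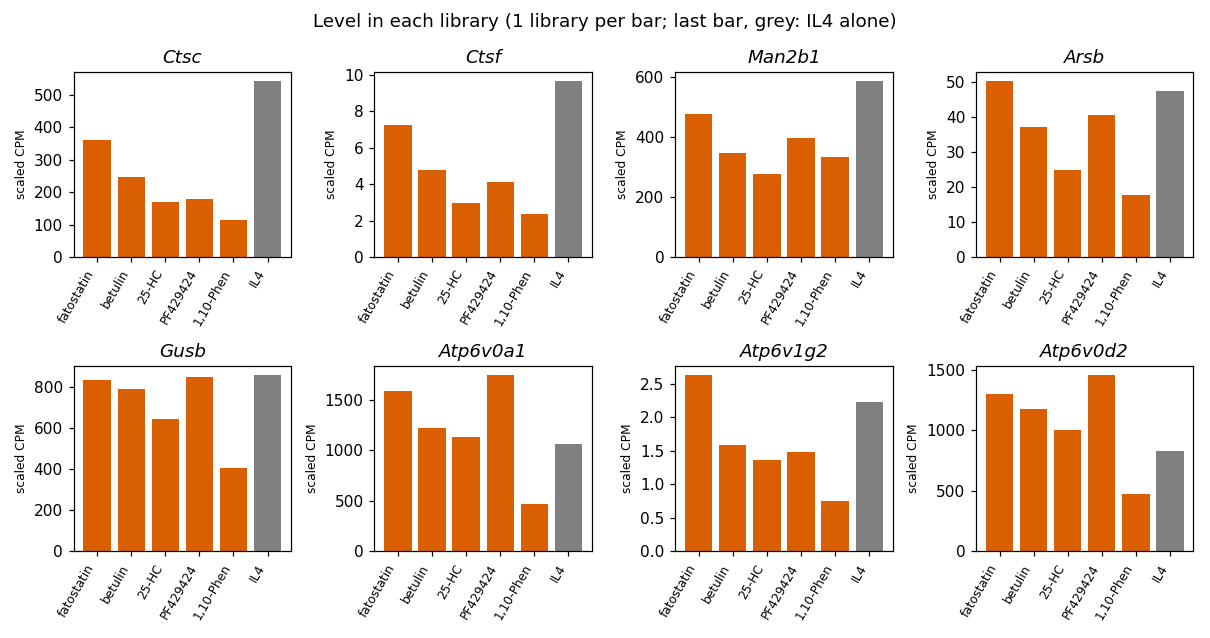
Scaled CPM (y axis, linear from 0, a scale of its own for each gene) in the 5 compound libraries and in IL4 alone (x axis, last bar grey) for the 7 genes called in any comparison and Atp6v0d2; 1 library per bar, with no error bar. Ctsc had 113 CPM in the 1,10-Phen library, against 544 CPM with IL4 alone, and Atp6v0a1 had 468 CPM with 1,10-Phen, against 1067 CPM with IL4 alone.

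None of the 8 membrane proteins was called. Laptm5, a lysosomal membrane protein of blood cells that promotes breakdown of immune receptors, was below IL4 alone with every compound and had 1699.9 CPM with fatostatin, 1407 with betulin, 1070.0 with 25-HC, 1309 with PF429424 and 1692 with 1,10-Phen, against 1869 CPM with IL4 alone. Lamp1, one of the most abundant glycoproteins of the lysosomal membrane, had 2304 CPM with fatostatin, 1993 with betulin, 1425 with 25-HC, 1973 with PF429424 and 1999 with 1,10-Phen, against 2103 CPM with IL4 alone. The 25-HC library stood below the rest, at a log2 ratio of -0.56. Lamp2, its close relative, which also serves autophagosome fusion and chaperone-mediated autophagy, had 665 CPM with fatostatin, 594 with betulin, 503 with 25-HC, 722 with PF429424 and 582 with 1,10-Phen, against 679 CPM with IL4 alone. The 25-HC library was again the lowest, at -0.43. Cd68, the macrophage-specific relative of the LAMP proteins, had 2245 CPM with fatostatin, 1995 with betulin, 1707 with 25-HC, 2287 with PF429424 and 1593 with 1,10-Phen, against 1736 CPM with IL4 alone. Its values with 25-HC and IL4 alone were close, and those with fatostatin and PF429424 were the highest.

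The transporters and channels of the class were at lower levels. Mcoln1, the calcium channel TRPML1, had 65.7 CPM with fatostatin, 59.3 with betulin, 50.8 with 25-HC, 77.9 with PF429424 and 78.2 with 1,10-Phen, against 56.0 CPM with IL4 alone. PF429424 and 1,10-Phen gave its highest levels, both at a log2 ratio of 0.48. Ctns, the transporter that lets cystine out of the lysosome, had 59.2 CPM with fatostatin, 59.0 with betulin, 43.5 with 25-HC, 55.6 with PF429424 and 38.5 with 1,10-Phen, against 54.9 CPM with IL4 alone. Its lowest level was with 1,10-Phen, at -0.51. Scarb2, the receptor that carries glucocerebrosidase to lysosomes, had 159.5 CPM with fatostatin, 124 with betulin, 119 with 25-HC, 138 with PF429424 and 129.8 with 1,10-Phen, against 147 CPM with IL4 alone. Cln3, the membrane protein lost in juvenile Batten disease, had 81.0 CPM with fatostatin, 73.6 with betulin, 73.2 with 25-HC, 77.1 with PF429424 and 74.1 with 1,10-Phen, against 77.5 CPM with IL4 alone. Cln3 was the flattest gene of the class, with ratios between -0.08 and 0.06. Its exons overlap those of Apobr on the other strand, which had 2358 counts with IL4 alone, against 1664 for Cln3. The strand setting of the counting is not given, so reads of the shared stretch cannot be told apart. The median over the 8 genes was 0.11 with fatostatin, -0.08 with betulin, -0.32 with 25-HC, 0.01 with PF429424 and -0.13 with 1,10-Phen. All 8 were below 0 with 25-HC, and 25-HC was the lowest library for 6 of the 8, or for 4 on library totals. The median with PF429424, at 0.01, was -0.13 on library totals.

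Most proton pump genes had ratios above 0. The median log2 ratio over the 16 compared genes was 0.23 with fatostatin, 0.27 with betulin, 0.13 with 25-HC, 0.41 with PF429424 and 0.07 with 1,10-Phen. The number below 0 was 0 with fatostatin, 1 with betulin, 3 with 25-HC, 1 with PF429424 and 7 with 1,10-Phen, so with fatostatin none was below IL4 alone on this scale. On library totals it was 2 with fatostatin, 2 with betulin, 4 with 25-HC, 1 with PF429424 and 12 with 1,10-Phen. Of all compared genes, 47.7% to 50.9% were below 0 on the TMM scale. IL4 alone was the lowest library for 7 of the 16 pump genes, and for 2 on library totals. With PF429424 the pump median was highest, and PF429424 was the highest of the 6 libraries for 9 of the 16 genes. The value with 1,10-Phen turned to -0.17 on library totals and -0.18 on log2(FPKM + 1); the median over all compared genes on those scales was -0.25 and -0.19, so relative to all genes it lay near 0 under each scaling. With betulin and 25-HC the pump median was above 0 while those of the hydrolases and of the 8 membrane proteins were below it. The 27 other lysosomal membrane proteins described below had medians above 0 with both, at 0.09 and 0.08. Against the median of the 6 libraries, the pump median with 25-HC was -0.055.

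Of the V1 sector, the part that splits ATP, 9 genes were compared. Atp6v1c1, the C subunit that joins V1 to V0 and leaves when the pump comes apart, had the highest ratio of the sector with each compound but 1,10-Phen. It had 336 CPM with fatostatin, 409 with betulin, 358 with 25-HC, 408 with PF429424 and 332 with 1,10-Phen, against 252 CPM with IL4 alone. All 5 compound libraries were above IL4 alone, betulin and PF429424 by the most. Atp6v1a, the catalytic A subunit, had 851 CPM with fatostatin, 844 with betulin, 742 with 25-HC, 858 with PF429424 and 1089 with 1,10-Phen, against 745 CPM with IL4 alone. Its level with 1,10-Phen, at a log2 ratio of 0.55, was above those of the other libraries. Atp6v1b2, the B subunit found in most tissues, had 1095 CPM with fatostatin, 1089 with betulin, 1084 with 25-HC, 1018 with PF429424 and 759 with 1,10-Phen, against 899 CPM with IL4 alone. In contrast to the A subunit, its level was lowest with 1,10-Phen, at -0.24. Atp6v1h, a regulatory subunit, had 136 CPM with fatostatin, 167 with betulin, 156 with 25-HC, 157 with PF429424 and 131 with 1,10-Phen, against 119.6 CPM with IL4 alone. Atp6v1d, part of the central rotor, had 126 CPM with fatostatin, 139 with betulin, 127 with 25-HC, 147 with PF429424 and 103 with 1,10-Phen, against 102 CPM with IL4 alone. IL4 alone was the lowest library for both of these genes, though on library totals 1,10-Phen was. Atp6v1e1, of the peripheral stalk, had 193 CPM with fatostatin, 189 with betulin, 159 with 25-HC, 220.1 with PF429424 and 209 with 1,10-Phen, against 164 CPM with IL4 alone. Atp6v1f, another part of the rotor, had 107 CPM with fatostatin, 112 with betulin, 102 with 25-HC, 119 with PF429424 and 91.9 with 1,10-Phen, against 98.1 CPM with IL4 alone. Both lay close to IL4 alone with 25-HC, at -0.04 and 0.06.

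The 2 genes for the stalk subunit G differed. Atp6v1g1, the widely used form, had log2 ratios of 0.22 with fatostatin, 0.33 with betulin, 0.21 with 25-HC, 0.57 with PF429424 and 0.17 with 1,10-Phen. Atp6v1g2, known as the form of neurons, was rare, with 56 counts with fatostatin, 34 with betulin, 30 with 25-HC, 30 with PF429424 and 14 with 1,10-Phen, against 48 counts with IL4 alone. It lies at chr17:35234931-35238767 (GRCm38) and fell with 1,10-Phen, at a log2 ratio of -1.46 (95% counting interval -2.55 to -0.69), the only V1 gene called. With 1,10-Phen it had 0.750 CPM, below the filter, so it was compared only because libraries in which it was higher passed. That call was lost on log2(FPKM + 1) and when the median of the 6 libraries was the reference. With a CPM minimum of 5 the gene was not compared at all. The gene's exons overlap those of Nfkbil1 on the other strand, and since no source used here gives the strand setting of the counting, reads of the 2 genes cannot be told apart. Without Atp6v1g2, no V1 gene was below 0 with betulin or PF429424.

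In the V0 sector, the part that carries the protons, 7 genes were compared. Atp6v0a1 encodes the a1 form of the largest V0 subunit, which sets the membrane a pump is sent to, and it lies at chr11:101009422-101063719 (GRCm38). It had 1592 CPM with fatostatin, 1221 with betulin, 1131 with 25-HC, 1748 with PF429424 and 468 with 1,10-Phen, against 1067 CPM with IL4 alone. The range over libraries was wide, with fatostatin and PF429424 above IL4 alone at 0.58 and 0.71 and 1,10-Phen below every other library. The 1,10-Phen ratio, -1.19 (95% counting interval -1.22 to -1.15), was called under each scaling, prior count, filter and reference that was tried. Atp6v0a2, the a2 form, was flatter and had 78.5 CPM with fatostatin, 79.5 with betulin, 86.9 with 25-HC, 85.2 with PF429424 and 66.3 with 1,10-Phen, against 76.6 CPM with IL4 alone. The gene for the a3 form, Tcirg1, which is known from osteoclasts and macrophages, is outside the Atp6v symbols, but belongs beside them. Its log2 ratio was 0.36 with fatostatin, 0.34 with betulin, 0.47 with 25-HC, 0.81 with PF429424 and -0.96 with 1,10-Phen, again with 1,10-Phen the lowest library and PF429424 the highest. By FPKM, Atp6v0a1 and Tcirg1 made up 49.9% and 47.4% of the summed level of the 4 genes for subunit a in the IL4 library, and 45.1% and 50.2% with 1,10-Phen. Atp6v0a4, the form of kidney and inner ear, had 0 counts in 5 libraries and 1 count with 1,10-Phen, where 3 counts, the limit that a count of 0 allows, are 0.137 to 0.161 CPM.

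Subunit d, which couples the rotor to V0, also has a pair of genes. Atp6v0d2, the form known from osteoclasts and from macrophages, had 1301 CPM with fatostatin, 1171 with betulin, 997 with 25-HC, 1456 with PF429424 and 474 with 1,10-Phen, against 831 CPM with IL4 alone. Its level was above IL4 alone with 4 compounds, by a log2 ratio of 0.81 with PF429424 and 0.65 with fatostatin, and below it with 1,10-Phen, by -0.81. That last value became a call of -1.05 on library totals or FPKM and -1.19 against the median of the 6 libraries. Atp6v0d1, the form of most tissues, had 193 CPM with fatostatin, 227 with betulin, 194 with 25-HC, 228 with PF429424 and 219.7 with 1,10-Phen, against 190.0 CPM with IL4 alone. Per length, Atp6v0d2 was the more abundant of the pair in every library, with 527 FPKM with fatostatin, 472 with betulin, 411 with 25-HC, 558 with PF429424 and 169 with 1,10-Phen, against 349.8 FPKM with IL4 alone, while Atp6v0d1 lay between 122 and 143 FPKM in all 6. The 2 forms thus came closest to each other with 1,10-Phen.

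Because Atp6v0d2 and Ctsk are also osteoclast markers, the 10 osteoclast markers were read beside them. Their summed level, most of it Atp6v0d2 itself, was 1879 CPM with fatostatin, 1590.1 with betulin, 1519 with 25-HC, 1973 with PF429424 and 730.4 with 1,10-Phen, against 1276 CPM with IL4 alone. Of the others, Ocstamp, a membrane protein needed for cell fusion, had 2004 counts with fatostatin, 1609 with betulin, 3955 with 25-HC, 2426 with PF429424 and 200 with 1,10-Phen, against 2094 counts with IL4 alone. Dcstamp, its partner in fusion, had 513 counts with fatostatin, 456 with betulin, 799 with 25-HC, 369 with PF429424 and 71 with 1,10-Phen, against 475 counts with IL4 alone. Both had their lowest counts with 1,10-Phen, as did Atp6v0d2, and their highest with 25-HC, unlike Atp6v0d2. Other markers of the list differed. Mmp9, a gelatinase, had 203 counts with fatostatin, 82 with betulin, 235 with 25-HC, 99 with PF429424 and 138 with 1,10-Phen, against 117 counts with IL4 alone. Itgb3, the integrin beta 3 chain, had 3871 counts with fatostatin, 1979 with betulin, 3143 with 25-HC, 4057 with PF429424 and 1994 with 1,10-Phen, against 2520 counts with IL4 alone. With 1,10-Phen the count of Mmp9 was above that of IL4 alone, and the lowest counts of Itgb3, with betulin and 1,10-Phen, were close to each other. These counts are unscaled, and the TMM factor was 1.017 for betulin and 0.900 for 1,10-Phen. Acp5, an acid phosphatase, had 3713 counts with fatostatin, 2902 with betulin and 859 with 1,10-Phen, against 2458 counts with IL4 alone. It had 1630 with 25-HC and 1864 with PF429424, below IL4 alone, unlike Atp6v0d2. Nfatc1, the transcription factor of osteoclast formation, had 1172 counts with fatostatin, 1115 with betulin, 1042 with 25-HC, 1079 with PF429424 and 1020 with 1,10-Phen, against 1361 counts with IL4 alone. The receptor for calcitonin, Calcr, had at most 1 count in a library and Oscar at most 3, and 8 of the 10 markers had a CPM of at least 1 in every library. Their part in the Atp6v0d2 values was not tested.

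The 3 remaining V0 genes encode the small membrane subunits. Atp6v0c, the proteolipid of the rotor ring and the pump gene with the highest FPKM with IL4 alone (1017 FPKM), had log2 ratios of 0.24 with fatostatin, 0.37 with betulin, 0.05 with 25-HC, 0.45 with PF429424 and -0.03 with 1,10-Phen. Atp6v0b, the related ring subunit, had 218 CPM with fatostatin, 233 with betulin, 217 with 25-HC, 249 with PF429424 and 238 with 1,10-Phen, against 204 CPM with IL4 alone. Atp6v0e, a small subunit beside the ring, had 197 CPM with fatostatin, 243 with betulin, 198 with 25-HC, 259 with PF429424 and 282 with 1,10-Phen, against 176 CPM with IL4 alone. Atp6v0e reached its highest level with 1,10-Phen, at a log2 ratio of 0.68, and stayed above 0 in all 5 comparisons also on library totals and FPKM. With 1,10-Phen, V0 genes thus ran from -1.19 for Atp6v0a1 to 0.68 for Atp6v0e, so the ratios of 1 sector differed in sign in that library.

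**Figure D4:**
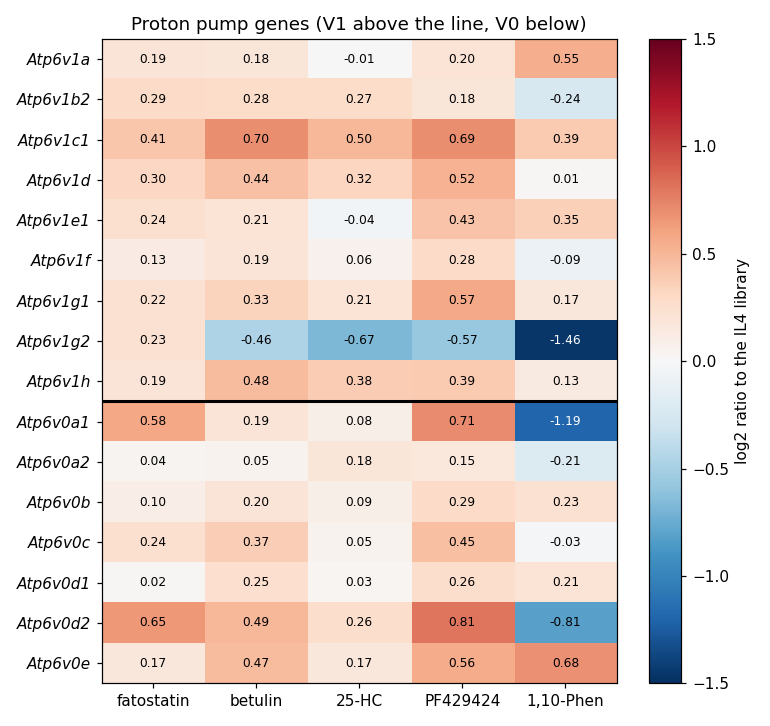
Log2 ratio to the IL4 library (colour and printed value; columns are compounds) for the 16 compared proton pump genes (rows), V1 above the line and V0 below. Most cells are above 0 in the first 4 columns, while the 1,10-Phen column holds Atp6v1g2 at -1.46 and Atp6v0a1 at -1.19 beside Atp6v0e at 0.68.

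Of the cofactors, Psap is the precursor of the saposins, which present sphingolipids to the hydrolases, and Grn is progranulin, which is cut to granulins in lysosomes. Psap had 17837 CPM with fatostatin, 16735 with betulin, 12918 with 25-HC, 20659.6 with PF429424 and 13910.2 with 1,10-Phen, against 15050.4 CPM with IL4 alone. It was above IL4 alone with fatostatin, betulin and PF429424 and below it with 25-HC and 1,10-Phen, as Ctsb was. Grn had 1747 CPM with fatostatin, 1449 with betulin, 1094 with 25-HC, 1647 with PF429424 and 1061 with 1,10-Phen, against 1641 CPM with IL4 alone. Both 25-HC and 1,10-Phen were below the other libraries, at log2 ratios of -0.58 and -0.63. Among the transcription factors, Tfeb had 77.8 CPM with fatostatin, 84.2 with betulin, 77.3 with 25-HC, 77.3 with PF429424 and 48.7 with 1,10-Phen, against 73.9 CPM with IL4 alone. Only the 1,10-Phen library stood apart, at -0.60. Tfe3, its relative, had 167 CPM with fatostatin, 158 with betulin, 209 with 25-HC, 188 with PF429424 and 211 with 1,10-Phen, against 179.7 CPM with IL4 alone. None of these 4 genes was called, and a transcript level does not show where the protein was in the cell, which is how TFEB and TFE3 are known to be controlled.

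**Figure D5:**
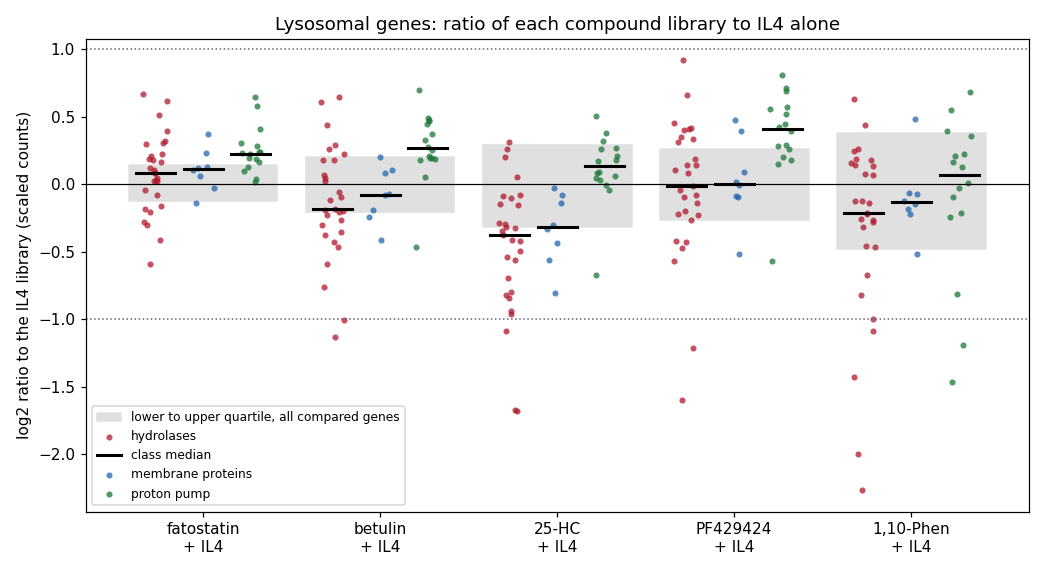
Log2 ratio to the IL4 library (y axis) for each hydrolase, membrane protein and proton pump gene (1 point each) in the 5 compound libraries (x axis); black bars are class medians, grey boxes span the lower to the upper quartile of all 11898 compared genes, and dotted lines mark 2-fold. With 25-HC the hydrolase median was -0.37 and the pump median 0.13, and with PF429424 the pump median was 0.41.

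The promoters show which lysosomal genes carry the sequence that TFEB and TFE3 are known to bind. RefSeq windows of 250 bases before to 50 after a gene start (GRCm38.p6) were at hand for 53 of the 63 genes. On either strand, TCACGTGA, the core of that sequence, was in a window of 8 of the 53 genes (15.1%), where 1.12% of all 27025 genes with a window and 2.25% of the 9574 compared genes with one held it. The shorter E-box CACGTG, which lies inside it, was in 17 of the 53 (32.1%), where 8.09% of all genes and 11.98% of the compared genes held it. The longer form with a further G before and C after was in 1 member, Cln3, or 1.89% of the 53, where 0.370% of all genes held it. The stretches around TCACGTGA are given because these genes, 3 hydrolases, 2 membrane proteins and 3 pump genes, can be set against the rest; the capitals mark the motif, and each reads 5′ to 3′ on the strand of its gene.
Ctsa (chr2:164833735-164833809, + strand): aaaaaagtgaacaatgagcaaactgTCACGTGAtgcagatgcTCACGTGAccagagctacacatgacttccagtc
Ctsd (chr7:142387894-142387951, - strand): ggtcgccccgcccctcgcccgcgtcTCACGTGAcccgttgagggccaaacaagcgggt
Gla (chrX:134601168-134601255, - strand): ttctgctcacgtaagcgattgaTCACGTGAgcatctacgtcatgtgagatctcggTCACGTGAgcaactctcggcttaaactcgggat
Cln3 (chr7:126583326-126583383, - strand): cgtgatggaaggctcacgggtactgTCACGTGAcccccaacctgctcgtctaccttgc
Mcoln1 (chr8:3500448-3500505, + strand): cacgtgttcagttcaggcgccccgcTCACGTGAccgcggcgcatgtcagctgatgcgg
Atp6v0d1 (chr8:105566036-105566093, - strand): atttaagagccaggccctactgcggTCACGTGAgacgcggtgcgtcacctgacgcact
Atp6v0e (chr17:26676373-26676430, + strand): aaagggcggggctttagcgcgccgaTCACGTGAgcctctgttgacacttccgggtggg
Atp6v1a (chr16:44139359-44139416, - strand): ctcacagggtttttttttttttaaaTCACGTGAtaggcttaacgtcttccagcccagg

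Ctsa and Gla hold the motif 2 times. None of the 8 genes was called in any comparison, and 7 of the 39 compared members with a window but without the motif were, with no test of that difference. With the shorter CACGTG, 1 of 17 genes was called, Ctsf, down to -1.996 with 1,10-Phen, and 6 of the 30 without it. The share of all compared genes called in at least 1 comparison was not counted. These few calls are therefore not read as a result about either motif. The median log2 ratio of the 8 was 0.18 with fatostatin, 0.22 with betulin, 0.01 with 25-HC, 0.38 with PF429424 and 0.35 with 1,10-Phen. The median of the 39 others was 0.10 with fatostatin, -0.12 with betulin, -0.33 with 25-HC, 0.06 with PF429424 and -0.14 with 1,10-Phen. The lowest of the 8 in any comparison was Mcoln1 with 25-HC, at -0.14, and the highest Ctsd with PF429424, at 0.92. A match is a stretch of letters, not a measured binding site, and the absence of a match concerns only this window.

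Other lysosomal genes were read from lists of related genes, 131 in all. Of 33 other hydrolases and activators, all compared, 1 was called higher with fatostatin (3.03%, where 0.874% of all compared genes were) and none lower. Called lower were 2 with betulin (6.06%, where 2.29% of all compared genes were) and 3 with 25-HC (9.09%, where 5.69% were). With PF429424 2 were called lower (6.06%, where 5.63% were). With 1,10-Phen 1 was called higher (3.03%, where 7.59% were) and 6 lower (18.2%, where 11.8% were). Of the 32 calls in the 7 lists, 28 held on library totals. The 4 lost there were Hyal1 with fatostatin at 0.95, Mcoln2 with PF429424 at 0.88, Slc11a1 with 1,10-Phen at 0.87 and Cst7 with 1,10-Phen at 0.97, while 8 others were gained. Sgsh, the sulfamidase of heparan sulfate, was lower with 4 compounds. Its log2 ratio was -1.11 with betulin (387 counts, against 845 with IL4 alone), -2.37 with 25-HC (165 counts, against 845 with IL4 alone), -1.51 with PF429424 (280 counts, against 845 with IL4 alone) and -1.15 with 1,10-Phen (329 counts, against 845 with IL4 alone). No other gene of the list was called with more than 2 compounds. Naaa, an acid amidase of fatty acid ethanolamides, had -1.005 with betulin (335 counts, against 679 with IL4 alone) and -1.70 with 25-HC (212 counts, against 679 with IL4 alone). Pla2g15, the lysosomal phospholipase A2, had a log2 ratio of -1.23 with 25-HC (1724 counts, against 3944 with IL4 alone) and -1.37 with 1,10-Phen (1329 counts, against 3944 with IL4 alone). Hgsnat, the acetyltransferase of heparan sulfate breakdown, had -1.14 with PF429424 (3514 counts, against 8188 with IL4 alone). Acp5, the tartrate-resistant acid phosphatase, had -1.31 with 1,10-Phen (859 counts, against 2458 with IL4 alone). The other 3 genes called lower with 1,10-Phen were Dpp7, Plbd1 and Ifi30, which are named after their values were seen. Hyal1, a hyaluronidase, was the exception in direction, with 1.003 with fatostatin (486 counts, against 244 with IL4 alone) and 3.18 with 1,10-Phen (1941 counts, against 244 with IL4 alone). Naaa with betulin and Hyal1 with fatostatin lay at the 2-fold threshold. The list's median was 0.08 with fatostatin, -0.14 with betulin, -0.35 with 25-HC, -0.04 with PF429424 and -0.23 with 1,10-Phen, each within 0.05 of the median of the 29 hydrolases.

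Of 27 other lysosomal membrane proteins, 1 was called higher with fatostatin, 1 higher with betulin, none with 25-HC, 2 higher with PF429424, and 2 higher and 2 lower with 1,10-Phen. These last are 7.41% of the list in each direction, where 7.59% of all compared genes were called higher and 11.8% lower. The 2 with PF429424 are the same share, where 2.49% of all compared genes were called higher. With fatostatin and with betulin the 1 gene is 3.70% of the list, where 0.874% and 1.91% were. Mcoln2, a channel related to Mcoln1, had log2 ratios of 1.01 with PF429424 (737 counts, against 385 with IL4 alone) and 1.37 with 1,10-Phen (866 counts, against 385 with IL4 alone). The other call higher with PF429424, and those with fatostatin and betulin, were of the rarer relative Mcoln3, named after its values were seen. It had 29 counts with fatostatin, 32 with betulin and 31 with PF429424, against 11 counts with IL4 alone. With IL4 alone Mcoln3 was below a CPM of 1, so it passed the filter only through libraries with a compound. The shares called higher that rest on this gene are thus no result about the list. Slc11a1, the metal transporter NRAMP1 of phagosomes, had 1.11 with 1,10-Phen (11040 counts, against 5866 with IL4 alone). Cd63, a tetraspanin of late endosomes, had -1.05 with 1,10-Phen (3854 counts, against 9156 with IL4 alone), and Tpcn2, a two-pore channel, had -1.02 with 1,10-Phen (1104 counts, against 2571 with IL4 alone). The median of the 27 was 0.21 with fatostatin, 0.09 with betulin, 0.08 with 25-HC, 0.24 with PF429424 and -0.15 with 1,10-Phen. With betulin and 25-HC the median of the 8 membrane proteins among the members lay on the other side of 0, at -0.08 and -0.32. All 8 were below 0 with 25-HC, where 10 of the 27 were. None of the 10 genes listed as accessory and assembly proteins of the pump, a list that also holds the subunit gene Tcirg1, was called. On library totals Tcirg1 was called lower with 1,10-Phen, at -1.20. The median of the 10 was 0.23 with fatostatin, 0.13 with betulin, 0.05 with 25-HC, 0.29 with PF429424 and -0.12 with 1,10-Phen. It was on the same side of 0 as that of the 16 pump genes with the first 4 compounds.

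Of 19 genes of lysosomal nutrient sensing and control of the TFEB family, 1 was called, the relative Tfec, which is known from macrophages. With 25-HC and with PF429424 this is 5.26% of the list, where 5.69% and 5.63% of all compared genes were called lower. Both shares are thus near the background. Its log2 ratio was -1.17 with 25-HC (838 counts, against 1840 with IL4 alone) and -1.10 with PF429424 (813 counts, against 1840 with IL4 alone), and the median of the list was 0.10 with fatostatin, 0.18 with betulin, 0.04 with 25-HC, 0.14 with PF429424 and -0.01 with 1,10-Phen. Of 13 genes that tag hydrolases with mannose 6-phosphate or sort them to lysosomes, 1 was called lower with 25-HC (7.69%, where 5.69% of all compared genes were) and 2 with 1,10-Phen (15.4%, where 11.8% were), which 1 gene fewer would put below the background. Sort1, sortilin, a sorting receptor for several hydrolases, had -1.41 with 25-HC (2053 counts, against 5348 with IL4 alone). Sorl1, a sortilin relative, had -1.61 with 1,10-Phen (136 counts, against 483 with IL4 alone), and the adaptor Gga2 had -1.23 with 1,10-Phen (496 counts, against 1344 with IL4 alone). The median of these 13 genes was 0.07 with fatostatin, 0.09 with betulin, -0.09 with 25-HC, 0.07 with PF429424 and -0.18 with 1,10-Phen. Of 26 autophagy genes, 1 was called higher with 25-HC (3.85%, where 3.27% of all compared genes were) and 2 with 1,10-Phen (7.69%, where 7.59% were), which are near the background. Sqstm1, the cargo receptor p62, had 1.37 with 25-HC (24794 counts, against 9400 with IL4 alone) and 2.37 with 1,10-Phen (42360 counts, against 9400 with IL4 alone). Map1lc3a, an LC3 form, had 1.60 with 1,10-Phen (593 counts, against 224 with IL4 alone). The median of the autophagy list was 0.04 with fatostatin, -0.03 with betulin, 0.12 with 25-HC, 0.06 with PF429424 and 0.33 with 1,10-Phen. Of the 3 cathepsin inhibitors that passed the filter, of 7 listed, 1 was called higher with 1,10-Phen (33.3%, where 7.59% of all compared genes were). A share of so few genes says little. The gene was Cst7, cystatin F, which is known to inhibit cathepsin C. It had 1.21 with 1,10-Phen (213 counts, against 105 with IL4 alone), and 0.97, no call, on library totals. The median of the 3 was 0.25 with fatostatin, 0.44 with betulin, -0.01 with 25-HC, 0.21 with PF429424 and 0.14 with 1,10-Phen.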

How the data were processed

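RNA of mouse bone-marrow-derived macrophages was sequenced in 6 libraries, 1 per treatment. Each deposited table holds, per the file headers, 1 estimated count (expected count) per gene, unscaled between libraries; 30.5% to 32.0% of a library's values were not whole. The FPKM beside each count was, per the file headers, scaled by the authors for transcript length and depth. HISAT2, Bowtie2, RSEM 1.2.12 and DESeq2 are named, without their roles, in the submitters' processing notes. No source used here gives the strand setting, and the exons of 16 compared members overlap those of another gene in GENCODE vM21. Positions and promoter windows are from RefSeq (GRCm38.p6).

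Counts were rounded, scaled by TMM factors (edgeR 4.0.16, R 4.3.3) and set as log2 ratios to IL4 with a prior count of 2, for genes with a CPM of at least 1 in at least 1 library (library totals). CPM printed per gene is per TMM-scaled library size. Intervals are exact Clopper-Pearson 95% intervals of the 2 counts and cover counting error only; 3 counts are 0.137 to 0.161 CPM. No test between treatments was run, since each has 1 library. Named members were those called in any comparison, those with 1 of the 3 highest or 3 lowest ratios of their class at a CPM of at least 5, and Tfeb, Tfe3, Psap and Grn; up to 2 called genes each way were named per list. Other genes were named after their values were seen. The members, lists and rules were chosen with earlier results of these data known. The procedure was checked on simulated data with counting error only and changes larger than the threshold for a call. That check could not cover spread between cultures, rare transcripts or changes near the threshold. Alternatives were library totals, size factors (DESeq2 1.42.0), a CPM minimum of 5 or none, prior counts of 10 and 0.5, log2(FPKM + 1), the median of the 6 libraries as reference and shares of FPKM. Python 3.11.15, numpy 2.4.6, pandas 2.3.3, SciPy 1.17.1 and matplotlib 3.10.9 were used. Mitochondrial genes were not analysed here.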

Additional observations from a re-analysis of the deposited data

How the results depend on the processing

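No paired analysis was possible because each treatment has 1 library, and no library could be left out for the same reason. With library totals the median of the membrane proteins was -0.13 with PF429424 and -0.37 with 1,10-Phen; on log2(FPKM + 1) it was -0.11 with PF429424 and -0.38 with 1,10-Phen. A prior count of 10 and log2(FPKM + 1) each left 1 member called lower with betulin, and log2(FPKM + 1) gave a pump median of 0.15 with fatostatin. Against the median of the 6 libraries, the number of members called lower was 0 with betulin, 0 with 25-HC and 0 with PF429424, and the pump median was 0.0073 with fatostatin, 0.11 with betulin, -0.055 with 25-HC and 0.20 with PF429424. There the membrane protein median with 1,10-Phen was -0.037, and 64 of the 285 member ratios changed sign. Among the 13 called ratios 2 did, Ctsc with betulin at 0.23 and Ctsf with betulin at 0.10; that reference lies below the IL4 level of these genes by construction. As shares of summed FPKM the members held 7.81% with fatostatin, 5.98% with 25-HC, 7.90% with PF429424 and 5.07% with 1,10-Phen, against 6.55% with IL4 alone. Of the other values for counts, medians and shares, 186 moved by less than the limits set for them, and of those for single genes 1082 did and 391 did not. The calls of Gusb, Arsb and Atp6v0a1 with 1,10-Phen held under each alternative. The 6 pump genes below the filter had too few counts to be compared at this depth, and spread between cultures could not be measured at any depth. Over all compared genes, log2(FPKM + 1) called 23 higher and 47 lower with fatostatin (104 and 126 in counts), 76 and 101 with betulin (227 and 272), 174 and 340 with 25-HC (389 and 677), 95 and 397 with PF429424 (296 and 670), and 399 and 1201 with 1,10-Phen (903 and 1408).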

Other observations

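A pair of member genes, noticed after their values were seen, lie side by side on chromosome 11: Atp6v0a1 and Naglu, the N-acetylglucosaminidase of heparan sulfate breakdown, with 6371 bases between them (GRCm38). With 1,10-Phen the log2 ratio was -1.19 for Atp6v0a1 and 0.15 for Naglu. With PF429424 it was 0.71 for Atp6v0a1 and 0.40 for Naglu, and with fatostatin 0.58 for Atp6v0a1 and 0.30 for Naglu. With betulin it was 0.19 for Atp6v0a1 and -0.06 for Naglu, and with 25-HC 0.08 for Atp6v0a1 and -0.28 for Naglu. The signs of the pair thus differed with betulin, 25-HC and 1,10-Phen.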
